A study of Mus musculus with 16 samples.

Results

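The imprinted genes Snrpn, Snurf, Snhg14 and Peg3 and the noncoding host gene Snhg11 were examined in left ventricles of mice that overexpress nitric oxide synthase 3 (NOS3) in cardiomyocytes. They are 5 of the 27670 gene names on the array and are read by 12 of its 41174 non-control probes, taken where the gene name or the listed transcript of the probe belongs to 1 of them. All 5 genes passed the filter on dim probes, through 11 of the 12 probes. They had been chosen from these arrays for a higher level in the transgenic heart that falls under pressure overload there, so the genotype differences and the fall in transgenic hearts are given below as a description with no test. The effect of overload in wild-type hearts and the effect of sex were no part of that choice and were tested. The wild-type arrays of both conditions entered the choice through the genotype differences, so the overload test in wild-type hearts is not fully free of it.

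Total RNA from a mid-ventricular ring of the left ventricle was hybridised to 16 one-colour Agilent arrays, with 4 arrays, 2 from males and 2 from females, in each of 4 groups. The NOS3-TG baseline group carries the transgene alpha-MHC-NOS3, in which the alpha-myosin heavy chain promoter, active in cardiomyocytes, drives NOS3, and its animals are labelled intact controls. The NOS3-TG TAC group carries the same transgene and was studied 10 weeks after transverse aortic constriction (TAC), a narrowing of the aorta that overloads the left ventricle with pressure. The WT baseline and WT TAC groups are wild-type littermates under the same 2 conditions, and all animals are on a C57BL/6 N background after 7 generations of backcrossing, matched for age and weight, with the age not given in the sources used here. Each array is labelled as an animal of its own. Levels below are log2 signals minus the 75th percentile of the same array, so a difference of 1 is a 2-fold change and a negative level lies under that percentile. Levels are compared between groups for 1 probe and never between probes.

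Snrpn and Snurf are read from a shared transcript of the imprinted region that is altered in Prader-Willi syndrome. Only the paternal copy is active, SNRPN is an Sm protein of the spliceosome that is most abundant in brain, and SNURF is a small protein encoded upstream of it on the same RNA. Snhg14 is the long noncoding RNA that continues downstream, hosts small nucleolar RNAs in its introns and, in neurons, runs antisense over Ube3a. Peg3, paternally expressed gene 3, encodes a zinc finger protein and lies in another imprinted domain of the same chromosome. Snhg11 is a small nucleolar RNA host gene that is not in either domain. In the RefSeq gene table (GRCm38.p6), 206 small nucleolar RNA genes lie within the span of Snhg14 and 2 within that of Snhg11.

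The start regions of the genes, which were chosen for a shared pattern, are shown as a description. They come from RefSeq (GRCm38.p6, 250 bases before to 50 after each annotated start). All 5 genes had an entry, in 6 distinct windows, of which 4 belong to Snrpn, Snurf and Snhg14. Capitals mark 2 motifs that were picked after the sequences had been read and searched on both strands: CGCATGCG, the centre of the consensus of nuclear respiratory factor 1, and TGACGTCA, the cyclic AMP response element. The 2 motifs are palindromes and do not overlap each other.
Snhg14 and upstream Snrpn start (chr7:60450128-60450427, minus strand): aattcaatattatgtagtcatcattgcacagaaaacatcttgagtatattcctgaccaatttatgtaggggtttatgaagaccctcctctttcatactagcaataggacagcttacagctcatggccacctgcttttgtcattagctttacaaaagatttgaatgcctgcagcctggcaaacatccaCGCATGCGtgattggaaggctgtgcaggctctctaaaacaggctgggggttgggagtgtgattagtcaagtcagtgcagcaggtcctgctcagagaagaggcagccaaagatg
Snrpn and Snurf start (chr7:60005150-60005449, minus strand): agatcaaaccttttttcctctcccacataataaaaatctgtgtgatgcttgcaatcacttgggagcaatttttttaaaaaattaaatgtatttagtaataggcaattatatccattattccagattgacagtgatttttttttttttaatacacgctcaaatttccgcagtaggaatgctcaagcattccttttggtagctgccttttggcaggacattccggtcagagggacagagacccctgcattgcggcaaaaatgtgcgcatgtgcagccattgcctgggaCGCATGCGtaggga
Peg3 start (chr7:6730370-6730669, minus strand): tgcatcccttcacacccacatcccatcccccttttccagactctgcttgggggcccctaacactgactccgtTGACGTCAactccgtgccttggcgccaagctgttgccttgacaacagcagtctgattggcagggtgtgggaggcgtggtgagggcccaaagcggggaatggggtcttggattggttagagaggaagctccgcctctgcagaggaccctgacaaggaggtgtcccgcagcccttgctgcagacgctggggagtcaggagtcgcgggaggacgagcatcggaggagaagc
Snhg11 start (chr2:158375463-158375762, plus strand): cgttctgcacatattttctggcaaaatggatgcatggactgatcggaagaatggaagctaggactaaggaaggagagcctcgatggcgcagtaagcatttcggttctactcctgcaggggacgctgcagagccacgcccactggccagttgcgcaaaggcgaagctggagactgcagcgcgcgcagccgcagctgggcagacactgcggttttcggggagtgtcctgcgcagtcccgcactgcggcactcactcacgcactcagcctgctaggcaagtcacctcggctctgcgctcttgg
CGCATGCG stands in all 4 windows of Snrpn, Snurf and Snhg14, against 1.86% of the 32817 distinct promoter windows in the table. Counted from the start, it stands at -63, -71 and -78 in the 3 upstream windows and at 36 in the window shared by Snrpn and Snurf. TGACGTCA stands in the Peg3 window at -178, against 1.79% of all windows, and neither motif is in the Snhg11 window. The 3 upstream windows are alike in sequence, with 71.0%, 60% and 49.5% identical bases in ungapped pairs over at least 285 bases. Their identity with the window shared by Snrpn and Snurf was 32.2% to 33.0%. The Snhg11 window holds 21 CpG dinucleotides, the Peg3 window 13, the Snrpn and Snurf window 7 and the upstream window of Snhg14 2, where the median window holds 7.

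The arrays were alike in brightness, with 75th percentiles of the processed signal between 1053 and 1491, and between 44.5% and 68.0% of probes were above background. Nos3 itself, read in both genotypes by 1 probe, lay at 7.63 to 8.03 in NOS3-TG baseline and 6.95 to 7.78 in NOS3-TG TAC hearts, against 0.96 to 1.45 and 1.51 to 1.85 in the WT groups, so all arrays matched their genotype label. All 15 cardiomyocyte markers were measured, and their summed level (linear signal over the 75th percentile) was 2993 to 4163 over the 16 arrays. On each of the 4 slides, baseline or TAC only, the transgenic male, transgenic female, wild-type male and wild-type female held positions 1 to 4 in that order, so array position and genotype cannot be told apart. Baseline hearts were on 2 slides and TAC hearts on the 2 others, so every TAC difference compares different slides. With slide as a random block (estimated correlation 0.06) the TAC tests in WT gave a limma adjusted p of 0.00399 for Snrpn and 0.0224 for Snhg14.

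Snrpn was highest in transgenic hearts at baseline and lowest in overloaded wild-type hearts. Its level was 3.87, 4.38, 4.16 and 3.69 in NOS3-TG baseline, 1.92, 3.02, 2.69 and 2.60 in NOS3-TG TAC, 2.02, 2.38, 2.14 and 2.32 in WT baseline, and 1.23, 1.28, 1.25 and 0.93 in WT TAC. All 4 transgenic baseline hearts lay above every other heart and all 4 WT TAC hearts below, while NOS3-TG TAC and WT baseline overlapped. The transgenic level was 3.50 times the wild-type level at baseline (log2 difference 1.81, SE 0.20) and 2.61 times it after TAC (1.39, SE 0.20). In NOS3-TG hearts the level after TAC was 0.362 of that at baseline (-1.47, SE 0.20). Over all genes, 0.415% were called between genotypes at baseline, 0.281% after TAC and 11.8% under TAC in NOS3-TG, and nothing is read from these shares for the 5 genes, which were chosen on those comparisons.

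In wild-type hearts Snrpn fell to 0.486 of its baseline level, a log2 difference of -1.04 (SE 0.20, limma adjusted p = 0.00264), with all 4 TAC hearts below all 4 baseline hearts. Of all 15667 genes, 28.4% were called in this comparison, so a call here is common on these arrays. The other Snrpn probe gave -1.03 (SE 0.20, adjusted p = 0.0028 over the 23066 probes that passed the filter). The 2 probes share 43 bases in the positions the files print (chromosome 7, 55735092 to 55735151 and 55735109 to 55735168), so they are not independent readings. The files name no genome build for these positions, and the order of start and end puts Snrpn on the minus strand.

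**Figure D1:**
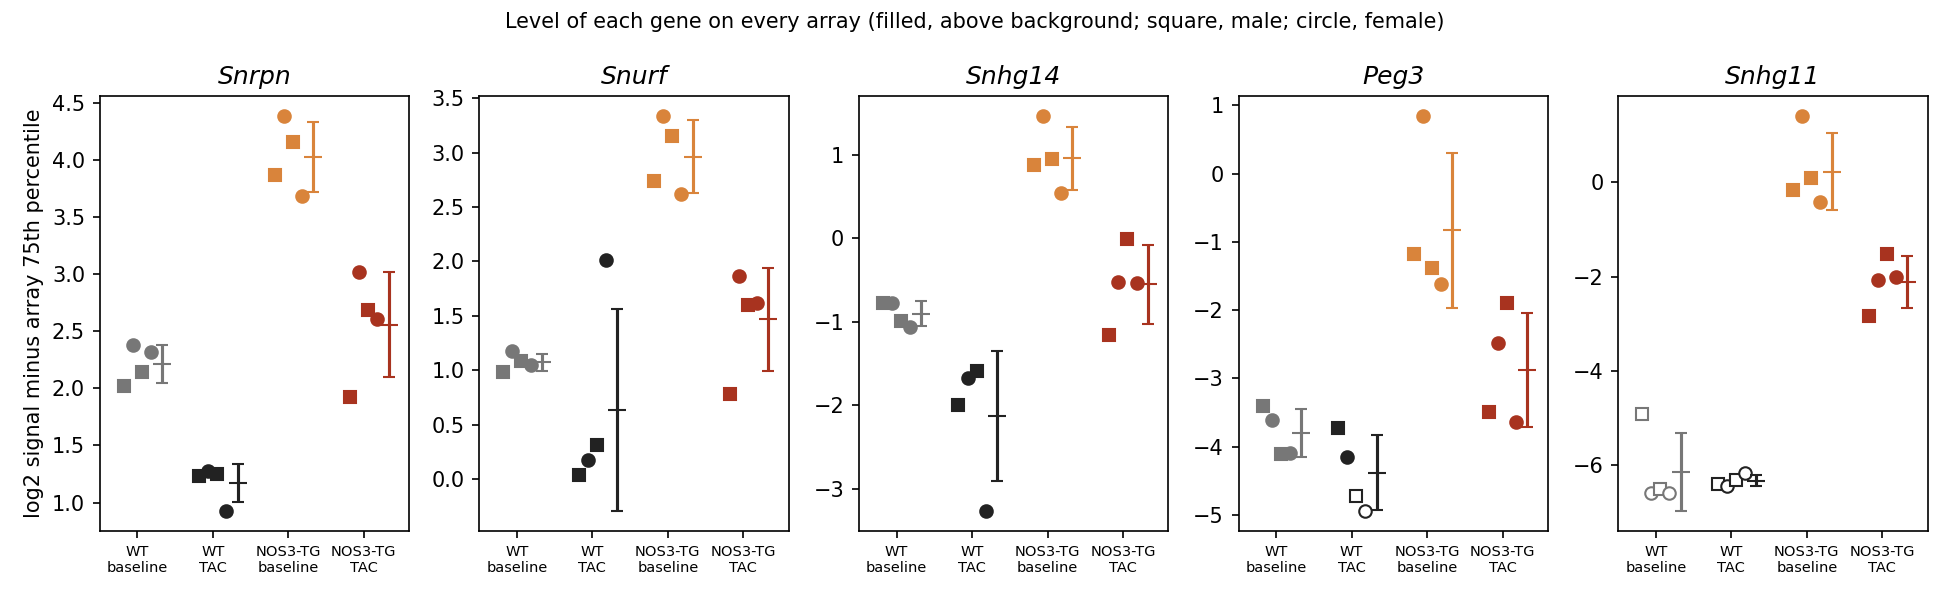
Level of the brightest probe of each gene on every array (log2 signal minus the array's 75th percentile), by group; bars are mean ± SD of 4 arrays and open symbols were not above background, squares are males and circles females. NOS3-TG baseline lies above the WT groups in every panel, and Snhg11 is not above background on any WT array.

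Snurf, read by 1 probe (chromosome 7, 55736317 to 55736375), had nearly the same order. It stood at 2.74, 3.34, 3.16 and 2.62 in NOS3-TG baseline, at 0.78, 1.86, 1.60 and 1.62 in NOS3-TG TAC and at 0.98, 1.17, 1.08 and 1.05 in WT baseline. In WT TAC it stood at 0.04, 0.17, 0.32 and 2.02. Replicate 4 of WT TAC was thus above every WT baseline heart and above all NOS3-TG TAC hearts, on the array where Snrpn was lowest. The list of transcripts for this probe holds an Snrpn transcript as well, so the 2 genes cannot be separated by it.

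At baseline the transgenic level of Snurf was 3.71 times the wild-type level (log2 difference 1.89, SE 0.34), and in NOS3-TG hearts it stood at 0.354 of baseline after TAC (-1.50, SE 0.34). After TAC the difference between genotypes was 0.83 (SE 0.34), with overlapping groups. The wild-type difference under TAC was -0.44 (SE 0.34, limma adjusted p = 0.369) and did not pass the test. Without WT TAC replicate 4 it was -0.87 (adjusted p = 0.019), and the genotype difference after TAC was 1.26. Without WT TAC replicate 2 the wild-type difference was -0.20.

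Snhg14 was read by a probe on the Snrpn strand (chromosome 7, 55717240 to 55717299, named D7Ertd715e in the files). Its level was 0.87, 1.46, 0.95 and 0.54 in NOS3-TG baseline, -1.15, -0.52, -0.01 and -0.53 in NOS3-TG TAC, -0.77, -0.78, -0.99 and -1.07 in WT baseline, and -1.99, -1.67, -1.59 and -3.26 in WT TAC. The order of the groups was that of Snrpn, again with overlap between NOS3-TG TAC and WT baseline and with no other overlap. The transgenic level was 3.63 times the wild-type level at baseline (log2 difference 1.86, SE 0.33) and 2.98 times it after TAC (1.58, SE 0.33), and in NOS3-TG hearts it stood at 0.351 of baseline after TAC (-1.51, SE 0.33). In wild-type hearts it fell to 0.428 of baseline (-1.23, SE 0.33, limma adjusted p = 0.0164). Without WT TAC replicate 4, the lowest array, the difference was -0.84 (adjusted p = 0.0369). With the mean of both Snhg14 probes it was -0.53 (adjusted p = 0.0595) and did not pass.

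A second Snhg14 probe, named C230091D08Rik in the files, was nearly level across the groups. It lies at chromosome 7, 55559973 to 55560032, beside the probes of Ube3a, and has their orientation, opposite to Snrpn. It was above background on all 16 arrays, between -2.35 and -1.60, and its 4 group means lay between -2.07 and -1.91. Its difference under TAC in WT was 0.16 (SE 0.15, limma adjusted p = 0.458), and the difference between genotypes at baseline was 0.02 (SE 0.15).

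Between the Ube3a probes and Snurf the array holds 12 probes, members included. Ube3a, the ubiquitin ligase that is imprinted in neurons, differed between genotypes by -0.04 (SE 0.10, limma adjusted p = 0.89) at baseline and by 0.03 (SE 0.10, adjusted p = 0.97) after TAC. Its difference under TAC was 0.04 (adjusted p = 0.83) in WT and 0.11 (adjusted p = 0.53) in NOS3-TG. The 2 probes on the Snrpn strand that belong to no named gene here were above background on no array. A transcript named AF315352, on the Ube3a strand, had group means of -1.86 in NOS3-TG baseline, -1.83 in NOS3-TG TAC, -1.43 in WT baseline and -2.28 in WT TAC, an order unlike that of Snrpn.

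**Figure D2:**
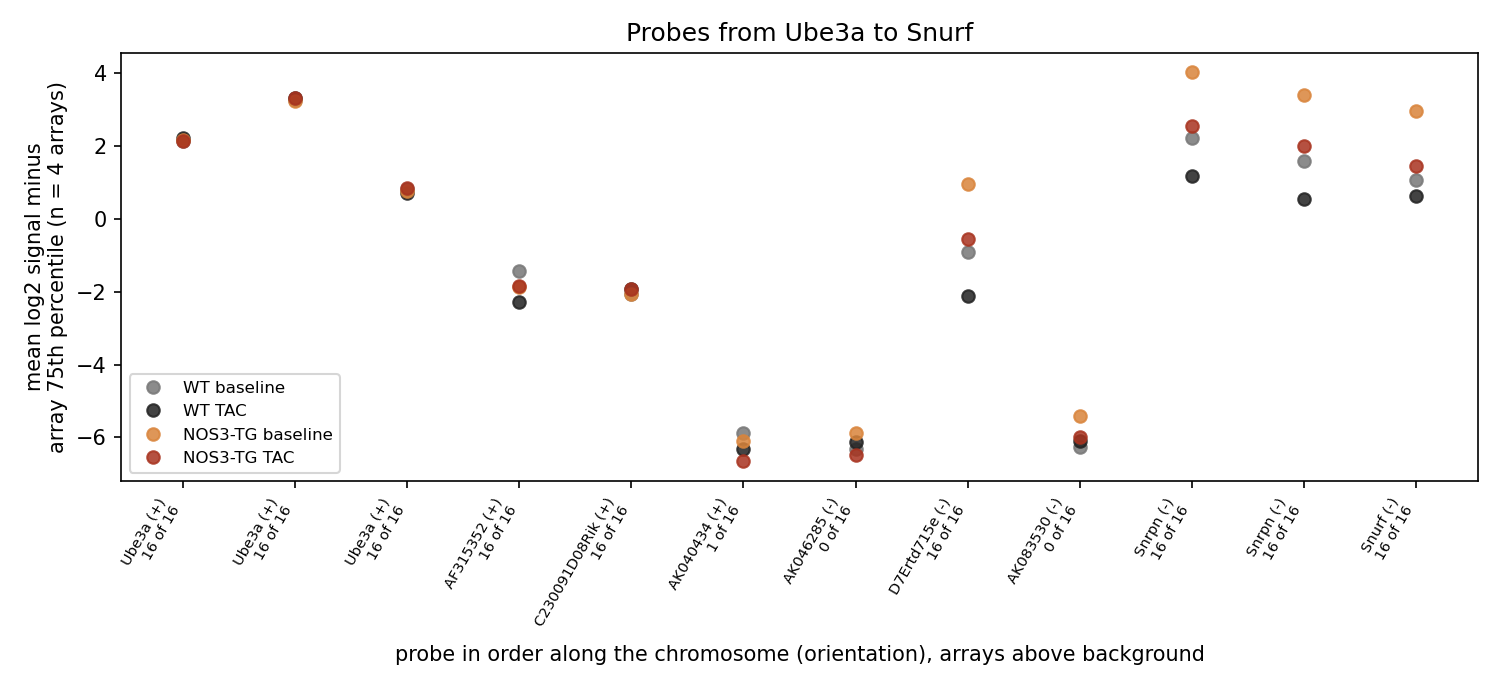
Mean level in each group (log2 signal minus the 75th percentile, n = 4 arrays) of the 12 probes from Ube3a to Snurf, in order along chromosome 7, with orientation and the number of arrays above background. The groups lie apart at D7Ertd715e (Snhg14), Snrpn and Snurf and close together at Ube3a and C230091D08Rik.

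No other measured gene around the Snrpn region was called between genotypes. Of its 16 listed neighbours 9 were measured, and 0 of 9 were called between genotypes at baseline or after TAC, where 0.415% and 0.281% of all genes were called. Necdin (Ndn), the paternally expressed growth suppressor of the region, differed by 0.03 (SE 0.10, limma adjusted p = 0.93) at baseline and 0.04 (SE 0.10, adjusted p = 0.95) after TAC. The imprinted retrogene Peg12 differed by -0.14 (SE 0.14, adjusted p = 0.71) and -0.23 (SE 0.14, adjusted p = 0.57). At baseline the other 6 lay between -0.10 (Herc2) and 0.27 (Atp10a), with Nipa1 at 0.05, Nipa2 at -0.06, Cyfip1 at -0.02 and Tubgcp5 at -0.04. After TAC Nipa1, a magnesium transporter, was at 0.38 (adjusted p = 0.13) and Herc2 at -0.36 (adjusted p = 0.28). Under TAC 1 of 9 fell in WT, where 28.4% of all genes were called, Nipa2 with a log2 difference of -0.25 (adjusted p = 0.0463), and 0 of 9 were called in NOS3-TG, where 11.8% of all genes were called. Ndn differed by -0.25 (adjusted p = 0.078) in WT and -0.24 (adjusted p = 0.14) in NOS3-TG.

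Peg3 was dim in wild-type hearts and brighter in transgenic hearts at baseline. Its main probe (chromosome 7, 6266913 to 6266972) lay at -1.17, 0.84, -1.38 and -1.62 in NOS3-TG baseline, -3.50, -2.48, -1.89 and -3.63 in NOS3-TG TAC, and -3.41, -3.61, -4.11 and -4.08 in WT baseline. In WT TAC it lay at -3.72, -4.15, -4.72 and -4.94, and only the first 2 of these arrays were above background. NOS3-TG baseline stood above all other hearts and NOS3-TG TAC above WT TAC, while NOS3-TG TAC and WT baseline overlapped, as did the 2 WT groups. Replicate 2 of NOS3-TG baseline was the highest array and the only one with a level above 0.

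The transgenic level of Peg3 was 7.84 times the wild-type level at baseline (log2 difference 2.97, SE 0.53) and 2.84 times it after TAC (1.51, SE 0.53). In NOS3-TG hearts it stood at 0.243 of baseline after TAC (-2.04, SE 0.53). Without NOS3-TG baseline replicate 2 the baseline difference was 2.37 and the difference under TAC was -1.44. With normexp background correction the differences between genotypes were 1.93 at baseline and 0.33 after TAC. In WT the difference under TAC was -0.58 (SE 0.53, limma adjusted p = 0.445) and did not pass the test. A second probe (6265247 to 6265306) gave 2.47 between genotypes at baseline, where its groups did not overlap. It gave -1.83 (SE 0.68) under TAC in NOS3-TG and 1.29 (SE 0.68) between genotypes after TAC, both with overlapping groups. It was above background on 4 NOS3-TG baseline, 3 NOS3-TG TAC, 1 WT baseline and 0 WT TAC arrays. The last of the 3 Peg3 probes was above background on no array.

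The domain of Peg3 was hardly visible on these arrays. Of 6 listed neighbours, 2 had probes, Usp29 and Zim1, and none passed the filter. Of the 20 nearest measured genes around Peg3 in the reference order, 0 of 20 were called between genotypes in either condition, and the same was found for the 20 around Snrpn and the 20 around Snhg11. All 5 listed partners of the PEG3 protein were measured and 0 of 5 were called between genotypes. For all these counts, the share of all genes called between genotypes was 0.415% at baseline and 0.281% after TAC. In WT under TAC, where 28.4% of all genes were called, 1 of 5 rose, Ctnnb1, which encodes beta-catenin, by 0.17 (SE 0.06, limma adjusted p = 0.042).

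Snhg11 was seen in transgenic hearts and not above background on any wild-type array. Its brightest probe (chromosome 2, 158126708 to 158126767, named E130013N09Rik in the files) lay at -0.16, 1.40, 0.08 and -0.43 in NOS3-TG baseline and at -2.84, -2.07, -1.51 and -2.01 in NOS3-TG TAC. On the WT arrays the signal was -6.58 to -4.91 at baseline and -6.43 to -6.16 after TAC. Against the lowest processed signals above background on those arrays, the transgenic level was at least 23.8-fold higher at baseline and at least 4.09-fold higher after TAC. These bounds depend on the background correction. With normexp the log2 signal differences were 3.50 and 1.65, which are smaller folds. In NOS3-TG hearts Snhg11 stood at 0.198 of baseline after TAC (log2 difference -2.33, SE 0.44), with all 4 TAC hearts below all 4 baseline hearts. No fold is given for TAC in WT, where both groups were below background.

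The other 3 Snhg11 probes behaved alike at baseline and under TAC in NOS3-TG. Each was above background on all 4 NOS3-TG baseline arrays and on no WT array, and on 3, 1 and 1 of the NOS3-TG TAC arrays. Their bounds at baseline were at least 11-fold (chromosome 2, 158126481 to 158126540), at least 5.75-fold (158122012 to 158122071) and at least 4.67-fold (158121677 to 158121736). Under TAC in NOS3-TG they differed by -2.36, -2.63 and -2.39. Between genotypes after TAC only the first of them had such a bound, at least 1.84-fold, and the last overlapped. The last of these probes had an outlier spot on WT TAC replicate 2, which was left out.

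A probe named AK147324 was not counted as a member, because the files describe it in conflicting ways. Its cDNA is also listed for both Snhg11 probes named E130013N09Rik, its description calls it exon D of Ipw, a noncoding RNA of the Snrpn region, and its printed position is chromosome 6, 114474795 to 114474854. It lay at -2.56, -1.02, -3.15 and -2.85 in NOS3-TG baseline and was above background on 2 of 4 NOS3-TG TAC arrays and on no WT array. At baseline it was at least 3.88-fold higher in NOS3-TG than in WT. Its correlation with Snhg11 over the 16 arrays was 0.97, and Ipw under its own name did not pass the filter.

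**Figure D3:**
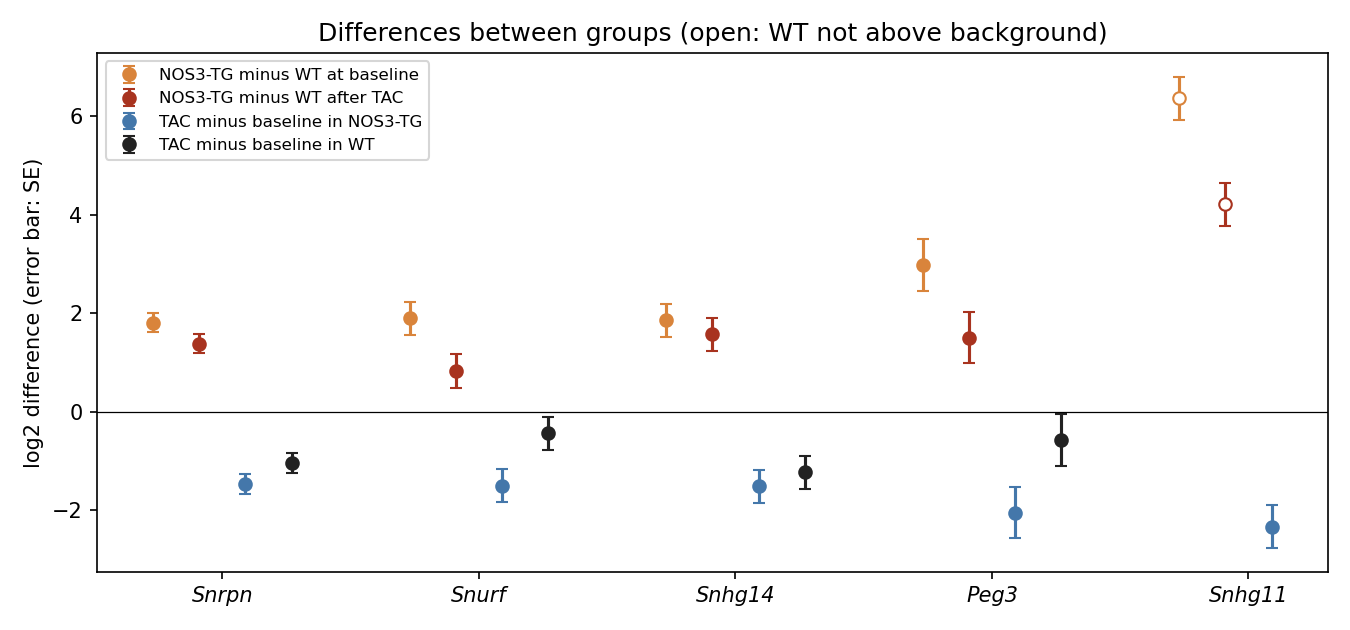
Log2 differences between groups with SE from the fit over 16 arrays. Open symbols, used for Snhg11 only, rest on WT arrays that were not above background, and TAC in WT is left out for Snhg11. Peg3 is drawn filled, although only 2 of its 4 WT TAC arrays were above background. The other 4 genes have negative values for TAC in WT, and those of Snrpn (-1.04) and Snhg14 (-1.23) passed the test.

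Beside each other, the falls under TAC in NOS3-TG and WT were -1.47 and -1.04 for Snrpn, -1.50 and -0.44 for Snurf, -1.51 and -1.23 for Snhg14 and -2.04 and -0.58 for Peg3. The difference between these falls was -0.42 (SE 0.28) for Snrpn, -1.06 (SE 0.48) for Snurf, -0.28 (SE 0.47) for Snhg14 and -1.46 (SE 0.74) for Peg3, given without a test because the choice of genes used the fall in NOS3-TG hearts. Without WT TAC replicate 4 it was -0.63 for Snurf and -0.67 for Snhg14, and without NOS3-TG baseline replicate 2 it was -0.86 for Peg3. Within slides, the genotype difference of Snrpn was 1.93 and 1.69 on the 2 baseline slides and 1.22 and 1.55 on the 2 TAC slides. For Snhg14 it was 1.94 and 1.77 at baseline and 0.99 and 2.16 after TAC, and for Peg3 3.34 and 2.60 at baseline and 0.95 and 2.06 after TAC. Snurf gave 1.96 and 1.83 at baseline and 1.22 and 0.44 after TAC. The transgenic hearts had the higher level of these 4 genes on all 4 slides. This is no separate support, because the genes were chosen for that difference.

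Sex did not pass the test for any of the 5 genes, where 1.33% of all genes were called. Males minus females gave -0.17 (SE 0.14, limma adjusted p = 0.642) for Snrpn, -0.39 (SE 0.24, adjusted p = 0.479) for Snurf, 0.14 (SE 0.24, adjusted p = 0.842) for Snhg14, -0.03 (SE 0.37, adjusted p = 0.982) for Peg3 and 0.04 (SE 0.31, adjusted p = 0.97) for Snhg11. For Snhg11 this mean includes the WT arrays below background.

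How far the genes varied together from heart to heart within groups differed between pairs. With group means removed, the correlation over 16 arrays ranged over the 10 pairs from -0.36 to 0.69. It was 0.65 between Snrpn and Snhg14, 0.63 between Snhg14 and Peg3 and 0.59 between Snrpn and Peg3, and 0.06 between Snurf and Peg3. The pairs with Snhg11 had 0.37 with Snrpn, 0.35 with Snurf, 0.43 with Snhg14 and 0.69 with Peg3, and in these the 8 WT arrays carry Snhg11 signals below background. Snrpn and Snurf had 0.27, and 0.95 without WT TAC replicate 4, whereas Snurf and Snhg14 had -0.36, and 0.78 without it. Replicate 2 of NOS3-TG baseline was the highest array for all 5 genes. That array also had the lowest share of probes above background of all 16, 44.5%. Without it the baseline difference between genotypes was 1.71 for Snrpn, 1.83 for Snurf and 1.65 for Snhg14. Arrays share the scaling by the 75th percentile, which is common to all genes of an array.

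**Figure D4:**
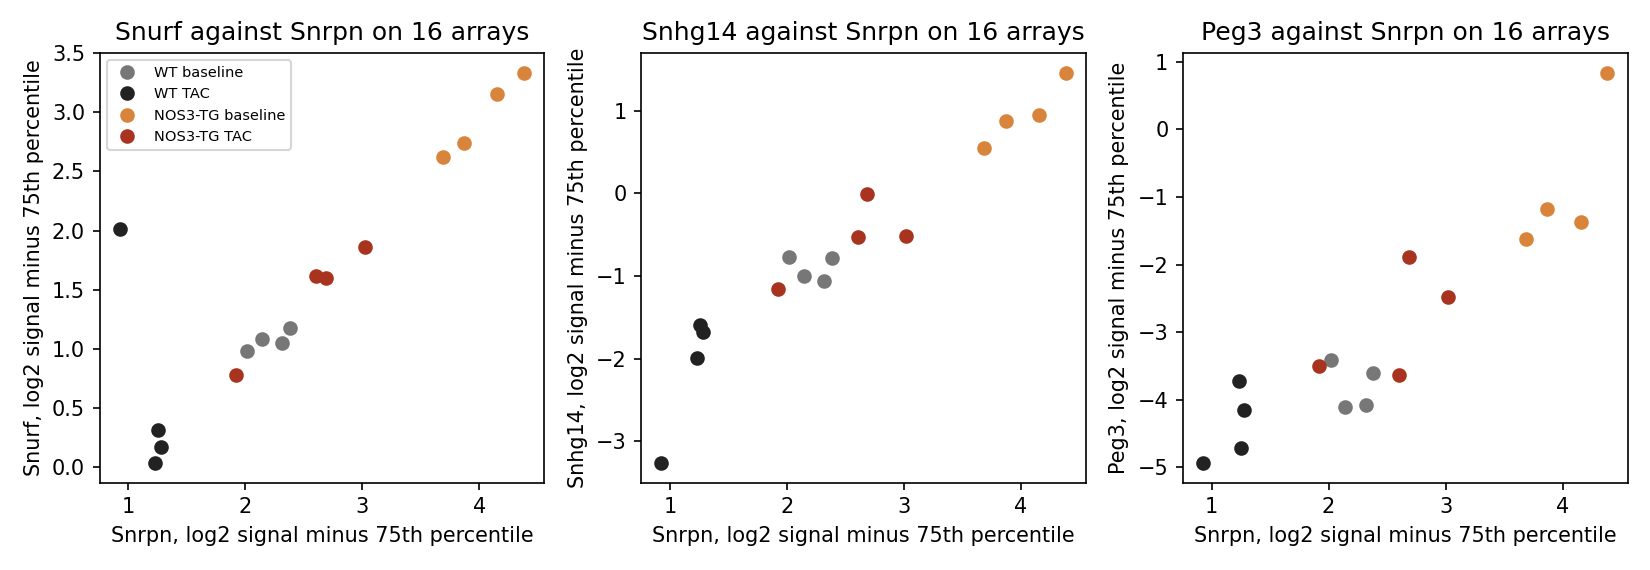
Level of Snurf, Snhg14 and Peg3 against Snrpn on the 16 arrays (log2 signal minus the 75th percentile), coloured by group. WT TAC replicate 4 stands apart for Snurf (2.02 where Snrpn is 0.93) and is lowest for Snhg14 (-3.26).

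Imprinted genes outside the domains of Snrpn and Peg3 were not called between genotypes. Of 61 on the list, 41 were measured, and 0 of 41 were called by limma at baseline or after TAC, where 0.415% and 0.281% of all genes were called. Their median difference between genotypes was -0.07 at baseline and 0.03 after TAC, against -0.06 and 0.01 for all genes. The noncoding RNA Meg3, named after its values were seen, had the highest baseline difference of the list, 1.38 (SE 0.71, adjusted p = 0.45), and lay -1.56 (SE 0.71, adjusted p = 0.172) under TAC in NOS3-TG.

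Under TAC, 12 of the 41 fell and 3 rose in WT, which is 15 called where 28.4% of all genes were, and 4 fell and 2 rose in NOS3-TG, where 11.8% of all genes were called. The median was -0.20 in WT against -0.06 for all genes. Nnat, encoding neuronatin, fell by 2.54 (SE 0.55, limma adjusted p = 0.00521). Its WT TAC mean was -6.00, as dim as signals of other probes not above background, so the size of its fall is uncertain. The noncoding RNA H19 fell by 1.00 (SE 0.27, adjusted p = 0.0164). The growth factor gene Igf2, the imprinted neighbour of H19, fell by 0.91 in WT (adjusted p = 0.0034) and by 0.71 in NOS3-TG (adjusted p = 0.0258). Dio3, the deiodinase that inactivates thyroid hormone, rose by 2.01 (SE 0.51, adjusted p = 0.0119) in WT. Its WT baseline mean was -4.08 (SD 0.80), near levels at which some probes were not above background, so the size of its rise is uncertain. Mest, a paternally expressed hydrolase gene, rose by 1.95 in WT (adjusted p = 0.000564) and 0.96 in NOS3-TG (adjusted p = 0.0432). In NOS3-TG the noncoding RNA Airn fell by 0.99 (adjusted p = 0.0291) and Zrsr1 by 0.78 (adjusted p = 0.0111). The 6 calls in NOS3-TG became 3 without NOS3-TG TAC replicate 3 and 1 without NOS3-TG baseline replicate 1, 3 or 4.

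**Figure D5:**
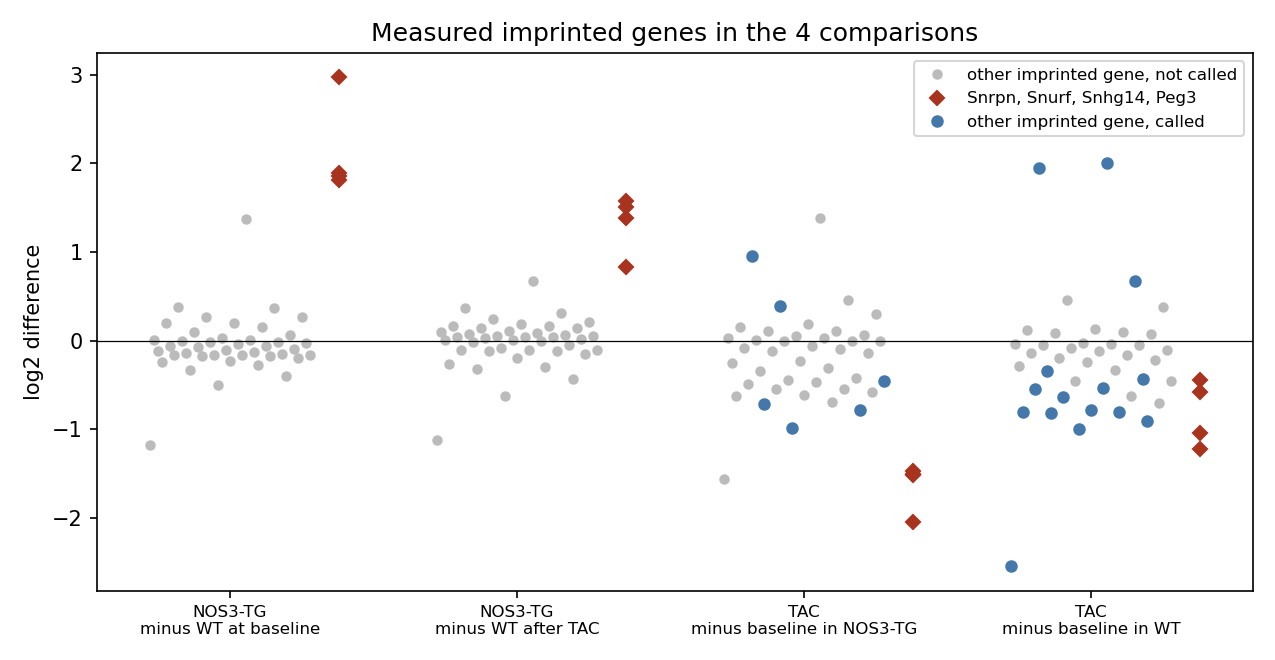
Log2 differences of the 41 other measured imprinted genes (grey, not called; blue, adjusted p under 0.05) and of Snrpn, Snurf, Snhg14 and Peg3 (red diamonds) in the 4 comparisons. Between genotypes no other imprinted gene was called, and under TAC in WT 15 were.

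Among 37 listed small nucleolar RNA hosts and long noncoding RNAs, H19 and Meg3 included, 17 were measured. At baseline and after TAC 0 of 17 were called between genotypes, where 0.415% and 0.281% of all genes were called. In WT under TAC, where 28.4% of all genes were called, 2 rose, Snhg5 by 0.49 (SE 0.16, limma adjusted p = 0.041) and Snhg18 by 0.48 (SE 0.16, adjusted p = 0.04), and 1 fell, H19. In NOS3-TG, where 11.8% were called, 1 fell, Snhg16 by 0.55 (SE 0.17, adjusted p = 0.048).

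The partners of SNRPN in the spliceosome were also examined. All 24 listed genes of the Sm ring and its assembly were measured and 0 of 24 were called between genotypes. Of all genes, 0.415% were called between genotypes at baseline and 0.281% after TAC. Snrpb, whose product SNRPN closely resembles, differed by -0.02 (SE 0.08, limma adjusted p = 0.93) at baseline, and fell under TAC by 0.51 in WT (SE 0.08, adjusted p = 0.000717) and by 0.42 in NOS3-TG (adjusted p = 0.0051). In WT, where 28.4% of all genes were called, 4 of 24 fell and 0 rose, with Snrpf at -0.44, Gemin2 at -0.29 and Snrpa1 at -0.20. In NOS3-TG, where 11.8% were called, 2 fell, Snrpb and Snrpa1, and Wdr77, a subunit of the methylosome, rose by 0.27 (adjusted p = 0.043).

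Of 28 listed genes of imprint maintenance and DNA methylation, 23 were measured. At baseline and after TAC 0 of 23 were called between genotypes, where 0.415% and 0.281% of all genes were called. In WT under TAC, where 28.4% of all genes were called, Uhrf1, which brings the maintenance methyltransferase to replicating DNA, rose by 1.52 (SE 0.40, limma adjusted p = 0.0146) and Uhrf2 by 0.26 (adjusted p = 0.045). None of the 23 was called under TAC in NOS3-TG.

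Because these genes are best known from brain, markers of neurons and glia were examined. Of 32 neuron and autonomic ganglion markers 14 were measured, and Prph, Nefh, Gap43, Scg2, Npy, Th, Slc18a3 and Ina were above background on no array. The summed level of the 14 was 11.2 to 13.8 in NOS3-TG baseline, 9.44 to 10.6 in WT baseline, 20.0 to 30.0 in NOS3-TG TAC and 12.8 to 23.8 in WT TAC. Uchl1, a ubiquitin hydrolase gene of neurons, makes up a large part of this sum, with log2 group means of 2.86, 2.23, 4.16 and 3.64 in the same order. The median difference of the 14 was -0.14 between genotypes at baseline (range -0.33 to 1.20) and -0.22 after TAC. Under TAC it was 0.06 in WT (-0.83 to 1.41) and 0.07 in NOS3-TG (-1.23 to 1.30). In WT under TAC 2 of 14 rose and 1 fell, where 28.4% of all genes were called. In NOS3-TG under TAC 1 rose and 1 fell, where 11.8% were called. The part of these cells in the levels of the 5 genes was not tested. None of the 14 was called between genotypes at baseline or after TAC, where 0.415% and 0.281% of all genes were called. Of 14 Schwann cell and glia markers 11 were measured, and 0 of 11 were called between genotypes. Their sums were 17.6 to 24.1 in NOS3-TG baseline, 19.5 to 28.7 in WT baseline, 18.7 to 21.1 in NOS3-TG TAC and 20.7 to 25.6 in WT TAC. In WT under TAC, where 28.4% of all genes were called, 5 of these 11 fell and 1 rose. The falls were led by Kcna1, a potassium channel gene, at -1.93 (limma adjusted p = 0.042). In NOS3-TG under TAC, where 11.8% of all genes were called, 1 of 11 fell and 0 rose. The median of the 11 under TAC was -0.86 in WT and -0.56 in NOS3-TG, against -0.06 and -0.001 for all genes.

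Of the other cell types, some macrophage markers were called between genotypes at baseline. All 12 macrophage markers were measured, and 2 of 12 were higher in NOS3-TG at baseline, where 0.415% of all genes were called, Adgre1 by 0.63 (SE 0.11, limma adjusted p = 0.031) and Csf1r by 0.59 (SE 0.10, adjusted p = 0.025), with all 12 differences between 0.38 and 0.88. After TAC 0 of 12 were called between genotypes (median 0.14), where 0.281% of all genes were called. Under TAC 8 of 12 rose in WT (median 0.48), where 28.4% of all genes were called. In NOS3-TG 2 of 12 rose (median -0.02), where 11.8% were called. The summed level of the 12 was 95.4 to 115 in NOS3-TG baseline and 67.8 to 83.3 in WT baseline, 109 to 127 in NOS3-TG TAC and 90.4 to 117 in WT TAC. The part of these cells in the levels of the 5 genes was not tested, and in bulk tissue more cells of a type and more RNA per cell cannot be told apart. The median of the 10 measured atrial and conduction markers was 0.67 between genotypes at baseline and -0.31 after TAC. Under TAC it was -0.29 in WT and -1.10 in NOS3-TG. Between genotypes 0 of 10 were called in either condition, against 0.415% and 0.281% of all genes. Their summed level was 65.3 to 307 in NOS3-TG baseline, 71.8 to 407 in WT baseline, 357 to 414 in NOS3-TG TAC and 226 to 472 in WT TAC, and Bmp10, Shox2 and Isl1 were above background on no array. Nppa, encoding atrial natriuretic peptide, makes up a large part of this sum after TAC, with log2 group means of 6.71 in NOS3-TG baseline, 6.21 in WT baseline, 8.46 in NOS3-TG TAC and 8.28 in WT TAC. The part of these markers was not tested either. Of the measured fibroblast (12), endothelial (10), smooth muscle (8), adipocyte (6) and erythroid (4) markers, 0 were called between genotypes in either condition.

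The genes whose pattern was most like each member were named by the highest Pearson correlation over the 16 arrays. These values carry the differences between the 4 groups and are given as a description. For Snrpn they were Calm3 (0.97), a cDNA from embryonic spinal cord named AK049610 (0.95), Tbce (0.94), Cntn5 (0.93) and Vamp1 (0.93), and the same 5 were the most like Snhg14 (0.95 for AK049610 to 0.90 for Vamp1). Calm3 encodes calmodulin, the calcium sensor, Tbce a tubulin folding chaperone, Cntn5 a neuronal adhesion protein and Vamp1 a vesicle fusion protein. With group means removed the correlation with Snrpn was 0.79 for Calm3, 0.71 for AK049610 and 0.35 for Tbce. Calm3 stood at 4.75 ± 0.19 (SD, n = 4) in NOS3-TG baseline, 3.90 ± 0.19 in NOS3-TG TAC, 3.97 ± 0.06 in WT baseline and 3.44 ± 0.06 in WT TAC. Its other 2 probes were also higher in NOS3-TG at baseline, by 1.09 and 0.74, but under TAC in WT they differed by 0.12 and -0.01 where the brightest probe differed by -0.52.

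For Peg3 the most alike were AK147324 (0.94), Magee1 (0.93), Maged1 (0.90), Calm3 (0.89) and 9230112J17Rik (0.88). Magee1 and Maged1 encode proteins of the melanoma antigen family, to which necdin also belongs. Magee1 stood at -1.62 ± 0.48 (SD, n = 4) in NOS3-TG baseline, -2.17 ± 0.18 in NOS3-TG TAC, -2.23 ± 0.08 in WT baseline and -2.66 ± 0.11 in WT TAC. For Snhg11 they were AK147324 (0.97), Nos3 (0.95), Pir (0.93), Tbk1 (0.93) and TC1492305 (0.91), and the value for Nos3 was 0.03 with group means removed. For Snurf they were LOC631323 (0.91), Calr3 (0.87), Calm3 (0.86), AK147324 (0.86) and Maged1 (0.85). Among 15503 genes compared, 28 were in the 50 most correlated with at least 3 members, and 7 were there for all 5: AK147324, Calm3, Cdh4, Maged1, Nr0b2, Snn and Tbce.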

How the data were processed

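The intensity values are the processed signals deposited by the authors, background-subtracted by Agilent Feature Extraction 9.5.1.1 per the file headers and the submitters' processing notes, and not normalized between arrays. Control and outlier spots were left out, and 41174 probes were named through RefSeq symbols where they matched (22951 by accession, 9768 by symbol or synonym). After log2 the 75th percentile of an array was subtracted, probes above background on under 4 of 16 arrays were dropped, and each gene was read from its brightest remaining probe by mean. Limma 3.58.1 in R 4.3.3 fitted 4 group means and sex, two-sided, with Benjamini-Hochberg adjustment over all 15667 genes, and calls are at an adjusted p under 0.05. The fit was tested on simulated data. The members and gene lists were chosen with earlier results of these data known, and the named genes followed a rule: all members, all measured domain neighbours, up to 4 called genes per other list and comparison by size, and the 5 genes most correlated with each member. Where a group was nowhere above background, folds are lower bounds taken from the lowest processed signals above background. Another background correction can give smaller folds. The motifs, the 20 nearest genes and 2 alternatives were chosen after seeing the data. The authors also deposited log2 values for 22057 probes, with no normalization named in those sources. Per array they tracked the scanner values on the log2 scale (r at least 0.9996, slope 0.986 to 1.01, medians 9.95 to 9.99), so scale and direction are known and genes are not centred. The number of arrays limits the precision. Results for some genes of the lists are not reported here.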

Additional observations from a re-analysis of the deposited data

Results flagged for a closer look

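Groups of 4 arrays were examined for a single array apart from the others, by the gap to its neighbour over the range of the group, in 43 groups of the probes of the 5 genes. Chance flags about 1 in 20 such groups, and 4 were marked. Snurf at 2.02 on WT TAC replicate 4 stood above its nearest value of 0.32. Snrpn at 0.93 on the same array lay below its nearest value of 1.23. The second Peg3 probe stood at -0.57 on NOS3-TG baseline replicate 2, above a nearest value of -2.31. The brightest Snhg11 probe stood at -4.91 on WT baseline replicate 1, above a nearest value of -6.49, and none of the 4 arrays of that group was above background for it.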

How the results depend on the processing

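All genotype and TAC differences of the 5 genes that are given above kept their direction under every alternative that gave a value. The authors' deposited values hold no Snhg11 row, and a filter on all 16 arrays leaves out Peg3 and Snhg11. The fall of Snrpn in WT passed the test in every alternative. That of Snhg14 no longer passed with the mean of both its probes (-0.53, adjusted p = 0.0595), and leaving out 1 array gave -1.42 to -0.84. For Snurf leaving out 1 array gave -0.87 to -0.20. The mean of all probes also gave 0.94 at baseline, 0.79 after TAC and -0.69 under TAC in NOS3-TG for Snhg14. Averaging adds the Snhg14 probe of the other strand. Normexp background correction gave differences between genotypes at baseline and after TAC of 1.93 and 0.33 for Peg3. The cause was not tested. For Snhg11, whose WT signals are below background, the signal differences between genotypes are no measured folds: they were 6.36 at baseline and 4.21 after TAC as analysed, 4.78 and 2.52 with the mean of all probes and 3.50 and 1.65 with normexp. Within slides Snhg14 differed between genotypes after TAC by 0.99 and 2.16. The called other imprinted genes under TAC in NOS3-TG, 6 as reported, numbered 13 with array weights, 2 with normexp, 1 without the filter, and 1 to 9 when 1 array was left out. With 2 alternatives chosen after seeing the data, leaving out the 3 arrays with extreme shares of probes above background or with scan day as a block, they numbered 1 in each. Array weights called 1 other imprinted gene between genotypes at baseline. Over all genes the counts called ranged from 2694 to 5023 under TAC in WT, 401 to 3204 under TAC in NOS3-TG, 24 to 314 between genotypes at baseline and 2 to 91 after TAC. No paired analysis was possible because the labels give the animals numbers of their own that no groups share. Slide as a block, which pairs the genotypes by array slide and not by animal, could not change the genotype differences. Every slide holds both genotypes in equal number, so their unchanged values are fixed by the design. Probes below background in WT limit Snhg11 and Peg3.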
